A study of Mus musculus with 8 samples.

Results

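The comparison described here sets splenic naive B cells of mice that carry the genotype label B-EBi3-, called EBi3KO below, against those of wild-type (WT) mice, both without a tumor. It uses 4 of the 8 RNA-seq libraries of the study, 2 labelled EBi3KO and 2 labelled WT, chosen by their genotype and tumor status labels. The labels give strain C57BL/6, spleen and B cells for each of the 4 libraries and no treatment, age or sex; the nontumor mice carry the entry WT under tumor status. The other 4 libraries come from tumor-bearing WT and EBi3KO mice of a pancreatic cancer study. They entered the filter on low values and the estimate of the spread, and their levels are given beside a few genes for scale. How the Ebi3 allele was made, which exons it lacks and how the deletion was limited to B cells were not stated. Whether replicate libraries stem from different mice was not stated either, so the p-values below measure only spread between libraries. That spread was pooled over all 8 libraries. Between the 2 libraries of a group, the median absolute log2 gap was 0.0624 for EBi3KO tumor and 0.120 for WT tumor. It was 0.167 for EBi3KO nontumor and 0.186 for WT nontumor, so the spread was borrowed in part from tighter pairs.

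Ebi3 encodes a secreted chain with no signal of its own. It pairs with the p35 chain, encoded by Il12a, to form IL-35, and with the p28 chain, encoded by Il27, to form IL-27. Receptors for these cytokines are built from gp130 (Il6st), IL-12Rβ2 (Il12rb2) and WSX-1 (Il27ra), and they signal through JAK kinases and STAT transcription factors, which then switch on feedback genes of the SOCS family. B cells and plasma cells are among the known sources of IL-35, which is best known for restraining T cell responses. A naive B cell at rest is marked by a B cell receptor complex that includes Cd79a and Cd79b and by the transcription factor Pax5.

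Ebi3 itself (chr17:55952640-55957022 in mm10, plus strand) was almost silent in the nontumor libraries of both genotypes. The WT libraries held 8.94 and 11.0 normalized counts, that is, reads divided by a factor that puts the libraries on 1 depth, and the EBi3KO libraries held 12.8 and 11.5. These values rest on 8 and 8 reads against 10 and 9. The means were 9.96 ± 1.44 (SD, n = 2) in WT and 12.1 ± 0.931 (SD, n = 2) in EBi3KO, and the EBi3KO libraries lay slightly above the WT ones. On the log2(normalized count + 1) scale, used for every difference below, EBi3KO minus WT was 0.26 with a 95% interval from −0.43 to 0.95 (adjusted p = 0.745 by limma, a linear model fitted across all genes). The Ebi3 transcript therefore did not check the genotype label in these 4 libraries, and the group is called by its label throughout. For scale, the same transcript stood at 201 and 164 normalized counts in the WT tumor libraries and at 8.70 and 11.0 in the EBi3KO tumor libraries. A WT pair thus exceeded its EBi3KO pair in the tumor-bearing mice and not in the nontumor mice.

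The tested genes nearest to Ebi3 did not separate the genotypes. Of the 10 on each side of it, 0 of 20 passed the threshold and 0 had an unadjusted p under 0.05. Not all were close: counted from the start of Ebi3, Plcl2 to Kat2b began at −5443 to −2386 kilobases. Those from Pot1b to Fem1a began at −300.7 to 304.2 kilobases. Over the 20 genes the median log2 difference was 0.039, from −0.10 for Ubxn6 to 1.74 for the pseudogene Gm7334. The WT libraries of Gm7334 stood at 437 and 31.6 normalized counts on their own.

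Over the whole transcriptome, no gene separated the genotypes past the limma threshold. Of 13011 genes with a mean of at least 10 normalized counts, 0 had an adjusted p under 0.05 (0.0% in either direction), and the smallest adjusted p was 0.129. At an unadjusted p under 0.05 limma listed 1049 genes (8.06% of those tested), 653 of them higher (5.02%) and 396 lower (3.04%) in EBi3KO. The edgeR quasi-likelihood test on the recovered reads also found 0 genes (0.0%), with 1016 at an unadjusted p under 0.05 (7.81%). DESeq2 on the same reads found 21 (0.161%), 11 higher (0.0845%) and 10 lower (0.0769%), with 654 at an unadjusted p under 0.05 (5.03%). On a single set of simulated data, 10.5% of 152 DESeq2 calls were false, against 6.15% of 130 for limma and 6.11% of 131 for edgeR. DESeq2 also recovered more of the simulated 1.5-fold changes, 61% against 48% for limma and for edgeR. Genes described below for a DESeq2 call rest on that test alone. Both EBi3KO libraries lay above both WT libraries for 2061 genes (15.8%) and below both for 2095 (16.1%), 31.9% in all. Differences above 0 made up 51.4% of the genes and those below 0 made up 48.6%. These shares are the background for every list below.

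The interval around each gene limits the size of a difference, given a spread pooled over all 8 libraries. The tumor pairs were tighter than the nontumor pairs, so these intervals may be too narrow for the 4 compared libraries. The middle 50% of the log2 differences ran from −0.11 to 0.15 around a median of 0.0071, with a median standard error (SE) of 0.125. For 10838 of the 13011 genes (83.3%) the 95% interval lay within a 2-fold difference in either direction, and for 8564 (65.8%) within 1.5-fold. A difference of 2-fold or more was measured for 203 genes, most of them with few counts, as the plot of difference against level shows.

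**Figure D1:**
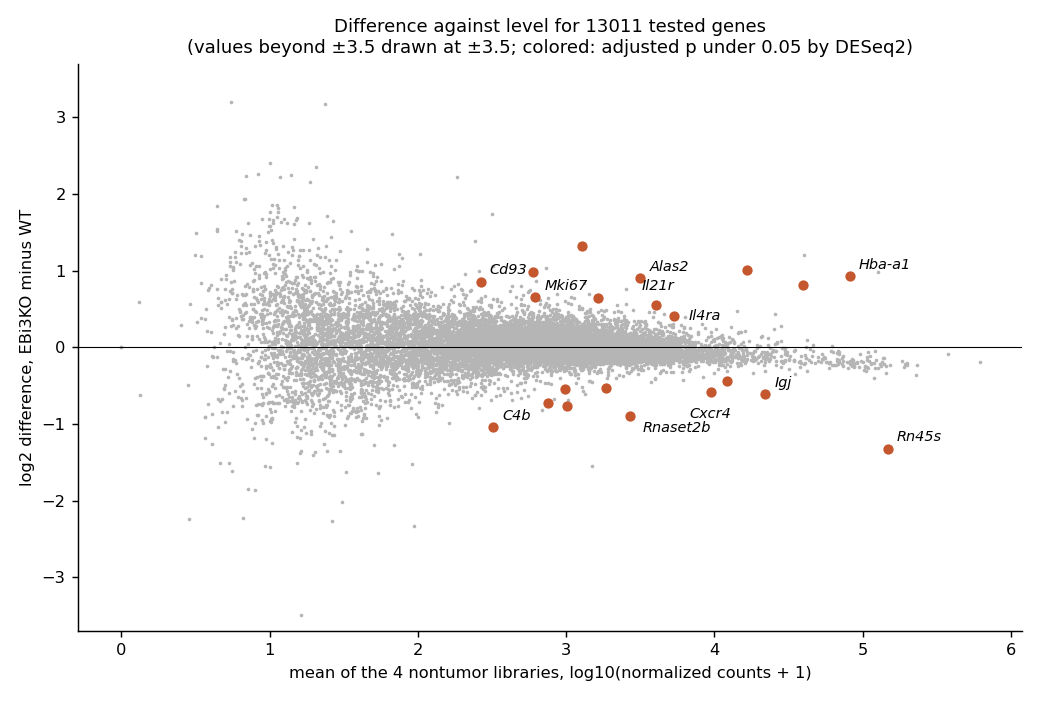
Log2 difference between EBi3KO and WT nontumor libraries (vertical) against the mean normalized count of the 4 libraries on a log10 axis (horizontal), 1 gray point per tested gene. The 21 colored points passed the DESeq2 threshold, among them Il21r at 0.55 and Rn45s at −1.32, while none passed the limma or edgeR threshold.

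Libraries of one genotype differed from each other about as much as libraries of different genotypes. The median absolute log2 gap over the 13011 genes was 0.167 between the EBi3KO libraries and 0.186 between the WT libraries. Between genotypes it ran from 0.117, for EBi3KO 2 and WT 1, to 0.254, for EBi3KO 1 and WT 2. The first principal component, with 57.94% of the variance of the 4 libraries, ran from EBi3KO 1 at −32.6 over WT 1 at −9.35 and EBi3KO 2 at 7.79 to WT 2 at 34.2, so the genotypes alternated along it. Depth was similar, between 21291892 and 26065124 reads per library with 15619 to 15959 genes detected. Gene length moved with the difference: across 12167 genes with a known length, Spearman's rho between length and the EBi3KO minus WT difference was 0.271, and between length and the gap from WT 1 to WT 2 it was −0.332. Genes are not independent replicates, so no p is attached, and the part of length in the results was tested only by removing its trend, with GC content, from each library.

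**Figure D2:**
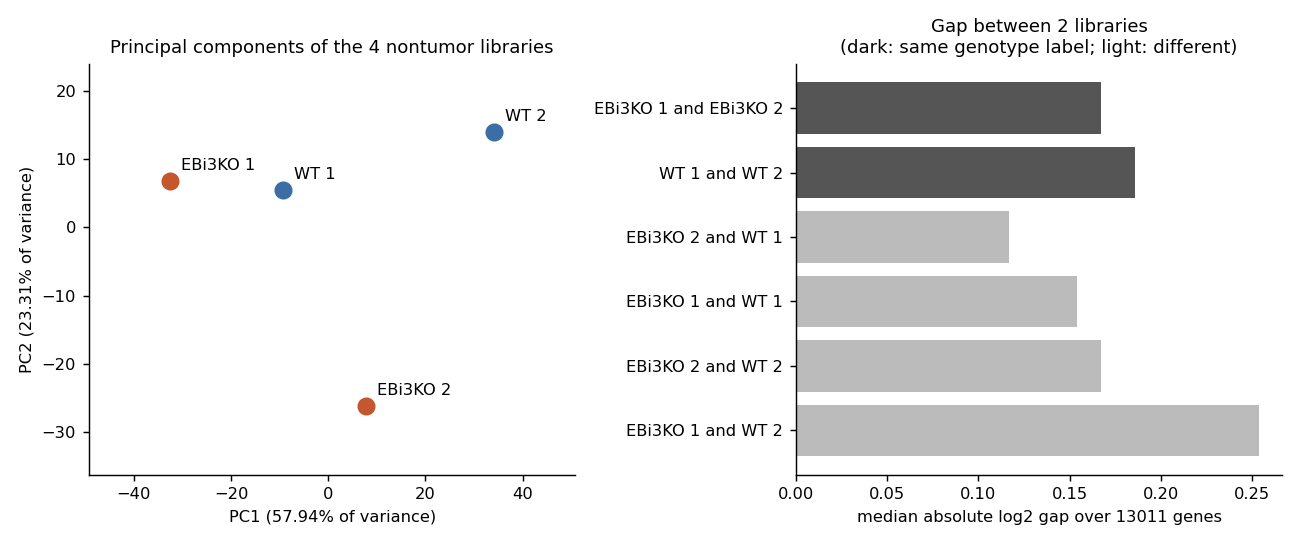
Left, the 4 nontumor libraries on the first 2 principal components (blue WT, orange EBi3KO; axes give percent of variance), with the genotypes alternating along the first. Right, the median absolute log2 gap over 13011 genes for each pair of libraries, dark bars for pairs of 1 genotype label (0.167 and 0.186) and light bars for pairs of different labels (0.117 to 0.254).

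Marker genes of the labelled cell type were abundant, and the 4 given here were level. Cd79a stood at 67671 and 69999 normalized counts in WT and at 64922 and 65214 in EBi3KO, and Cd79b at 58345 and 64479 against 60751 and 63310. Ms4a1, which encodes the surface protein CD20, differed by −0.02 and Fcer2a, which encodes the low-affinity IgE receptor CD23, by −0.03. The sign of Cd79a turned positive under quantile normalization, and the intervals of these 4 genes covered 0. Heavy chain constant genes of IgM and IgD were not analysed here. Xist, the RNA of the inactive X chromosome, was at 5.59 to 12.8 normalized counts in the 4 libraries and the Y-linked Ddx3y was detected in each, so they did not split by sex.

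Il21r and Il4ra, cytokine receptor genes that are neighbours on chromosome 7 and were both called by DESeq2, stood higher in EBi3KO. Il21r (chr7:125603429-125633570), the receptor chain for IL-21, a T cell help signal, stood at 3416 and 3113 normalized counts in WT and at 4915 and 4665 in EBi3KO. Its log2 difference was 0.55 (SE 0.0717, 95% interval 0.39 to 0.72), with an adjusted p of 0.184 by limma and of 4.08e-05 by DESeq2 (from 4.08e-05 to 0.936 over all settings). Il4ra (chr7:125552120-125579474), the receptor chain shared by IL-4 and IL-13, stood at 4707 and 4508 in WT and at 6254 and 5930 in EBi3KO, a difference of 0.40 (limma adjusted p 0.360; DESeq2 0.0129; from 0.0129 to 0.948 over all settings). For both genes the EBi3KO libraries lay above the WT libraries with no overlap, and both were higher still in the tumor libraries, with Il21r at 5463 to 6708 and Il4ra at 7471 to 8552. Il4ra ends 23955 bases before Il21r. Gtf3c1, the gene after Il21r, which encodes a subunit of a factor for RNA polymerase III and was looked at after these values were seen, stood at 895 and 778 in WT and at 1104 and 1016 in EBi3KO (0.34).

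**Figure D3:**
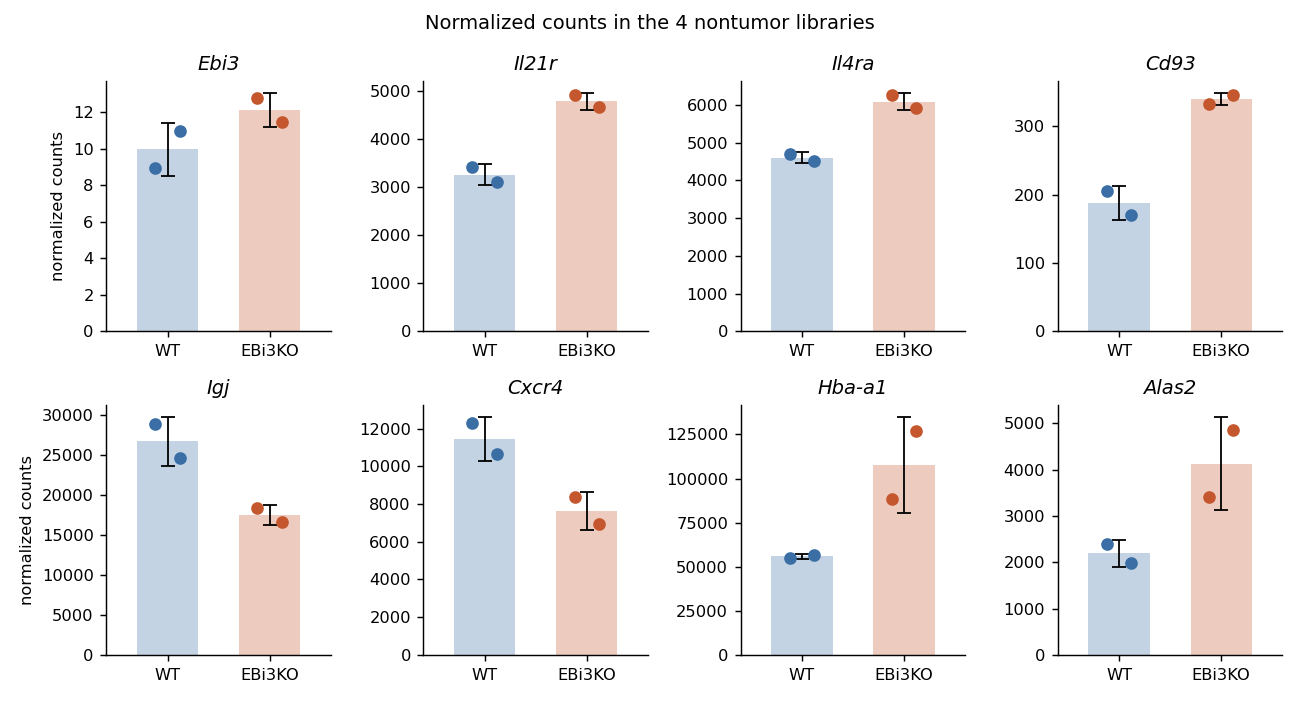
Normalized counts of 8 genes in each nontumor library (points), with group means (bars) and SD (n = 2, error bars). The groups do not overlap in any of the 8, but for Ebi3 the EBi3KO and WT means are 12.1 and 9.96, whereas for Il21r they are 4790 and 3264.

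Genes of transitional and precursor B cells, the stages before the mature naive cell, tended to stand higher in EBi3KO. None of the 10 tested members passed the limma threshold. At an unadjusted p under 0.05, 4 were higher and 0 lower. For 6, both EBi3KO libraries lay above both WT libraries, and the median difference was 0.20. Its size depended on the EBi3KO libraries, at 0.071 without EBi3KO replicate 1 and 0.50 without EBi3KO replicate 2. Cd93, the surface marker of transitional B cells detected by the AA4.1 antibody, stood at 206 and 170 normalized counts in WT and at 333 and 346 in EBi3KO. Its difference was 0.86 (SE 0.116, 95% interval 0.59 to 1.12), with an adjusted p of 0.184 by limma and 0.00248 by DESeq2 (from 0.00248 to 0.936 over all settings), and the groups did not overlap. The transcription factor Sox4 stood at 50.3 and 42.5 against 84.3 and 66.2 (0.68). Bcl7a, a chromatin remodelling subunit, stood at 788 and 698 against 1068 and 882 (0.39), and Lef1, a transcription factor of early lymphocytes, at 124 and 110 against 162 and 140 (0.37). Other members did not follow, with Vpreb3, a surrogate light chain partner, at −0.12 and Dntt, the enzyme that adds bases to receptor joints, at −0.49.

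Marginal zone B cells, which sit at the edge of the splenic follicles and depend on Notch2, were read by 15 tested genes. At an unadjusted p under 0.05, 2 were higher and 1 lower, with a median difference of 0.043. S1pr3, a sphingosine phosphate receptor, stood at 729 and 685 normalized counts in WT and at 962 and 1042 in EBi3KO (0.50, limma adjusted p 0.360). Myof, which encodes myoferlin, stood at 1007 and 741 against 1379 and 1180 (0.56), and Rbpj, the DNA-binding partner of Notch, at 1651 and 1690 against 1487 and 1487 (−0.17). The members did not share 1 direction.

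Plasma cell genes included several that stood lower in EBi3KO. Of 18 tested, none passed the limma threshold, 0 were higher and 5 lower at an unadjusted p under 0.05, both EBi3KO libraries lay below both WT libraries for 8 and above both for 3, and the median was −0.10. Igj, which encodes the J chain that links secreted antibody polymers, stood at 28844 and 24528 normalized counts in WT and at 18319 and 16540 in EBi3KO. The difference was −0.61 (SE 0.119, 95% interval −0.88 to −0.34), with an adjusted p of 0.403 by limma and 0.000214 by DESeq2 (from 0.000214 to 0.948 over all settings), and the groups did not overlap. In the tumor-bearing mice it stood at 3900 and 3145 in WT and at 42735 and 42448 in EBi3KO. Tnfrsf17, the plasma cell survival receptor BCMA, stood at 32.4 and 24.7 against 12.8 and 14.0 (−1.03). Derl3, of the degradation machinery of the endoplasmic reticulum, differed by −0.41, the peroxiredoxin Prdx4 by −0.28 and the translocon subunit Ssr4 by −0.18. In contrast, Sdc1, which encodes the plasma cell surface marker CD138, differed by 0.13. The regulators differed by −0.07 for Prdm1, −0.08 for Xbp1 and 0.15 for Irf4. The 95% interval of Irf4 ran from −0.25 to 0.56, with its WT libraries at 4163 and 2700 normalized counts. These are bulk samples, in which fewer cells of a type and less RNA per cell cannot be told apart.

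Cxcr4, the chemokine receptor that holds plasma cells in the bone marrow and organizes germinal centers, is also induced by glucocorticoids and was counted in that list. It stood at 12295 and 10642 normalized counts in WT and at 8352 and 6918 in EBi3KO. The difference was −0.59 (SE 0.105, 95% interval −0.83 to −0.35), with an adjusted p of 0.360 by limma and 0.000195 by DESeq2 (from 0.000195 to 0.936 over all settings), and the groups did not overlap. Of the 10 tested glucocorticoid-responsive genes, 0 were higher and 2 lower at an unadjusted p under 0.05, with a median of −0.24. Tsc22d3, the glucocorticoid-induced leucine zipper, stood at 18822 and 13759 against 15967 and 11728 (−0.23), and Fkbp5, an immunophilin induced by the same receptor, at 862 and 1134 against 1023 and 1435 (0.29). For both, the libraries of the genotypes overlapped.

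The chains of IL-35 and its relatives showed no difference beyond the spread. Il12a stood at 402 and 252 normalized counts in WT and at 459 and 321 in EBi3KO, overlapping, with a difference of 0.27 (95% interval −0.25 to 0.78, adjusted p 0.671 by limma) that ran from −0.07 to 0.60 over the settings tried. Il12b, the p40 chain of IL-12 and IL-23, stood at 32.4 and 26.1 against 15.3 and 17.8 (−0.78, 95% interval −1.66 to 0.11). Il27, with 7 to 10 reads a library, and Il23a, with 0 to 2, were below the level tested.

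Receptors, kinases and STATs of the pathway also showed no difference beyond the spread. None of the 6 receptor genes, the 4 JAK genes and the 7 STAT genes had an unadjusted p under 0.05, and their median differences were 0.15, 0.11 and 0.021. Without WT replicate 2 these 3 medians were −0.032, −0.054 and −0.035. The receptor and JAK medians stayed positive when any other single library was left out. The STAT median was also negative without EBi3KO replicate 1 (−0.00047) and without EBi3KO replicate 2 (−0.0045). With the trend on length and GC content removed it was −0.0405. Among the receptor chains, Il6st stood at 273 and 316 normalized counts in WT and at 333 and 315 in EBi3KO (0.14), Il27ra at 1026 and 827 against 1218 and 872 (0.16), and Il12rb2 at 41.4 and 32.9 against 34.5 and 42.0 (0.04). Each of these pairs of groups overlapped. The 95% interval of Il12rb2 ran from −0.51 to 0.60. That of Il23r, at 3 to 6 reads a library, ran from −0.76 to 1.32 around a difference of 0.28. The kinases differed by 0.08 for Jak1, 0.14 for Jak2, −0.17 for Jak3 and 0.15 for Tyk2. Stat3, the factor that relays IL-35 and IL-27 among others, stood at 3084 and 2803 in WT and at 2900 and 2934 in EBi3KO, a difference of −0.01 with a 95% interval from −0.17 to 0.15. Stat4, which relays IL-12, differed by −0.02 and Stat5a by 0.02.

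Feedback genes downstream of STATs were mixed. Of 10 tested, 1 was higher and 2 were lower at an unadjusted p under 0.05, with a median of −0.0049. Socs2, a feedback inhibitor induced by STAT5, stood at 111 and 143 normalized counts in WT and at 79.2 and 73.9 in EBi3KO (−0.71, unadjusted p 0.0101 and adjusted p 0.604 by limma), without overlap. Socs3, the feedback inhibitor induced by STAT3, stood at 382 and 343 against 327 and 269 (−0.29), and the kinase gene Pim2 at 1192 and 1266 against 1121 and 1015 (−0.20). Ptpn6, the phosphatase SHP-1, stood at 14429 and 13931 against 16596 and 15830 (0.19). Socs1 and Pim1, also feedback or target genes of STATs, differed by 0.03 and 0.12.

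**Figure D4:**
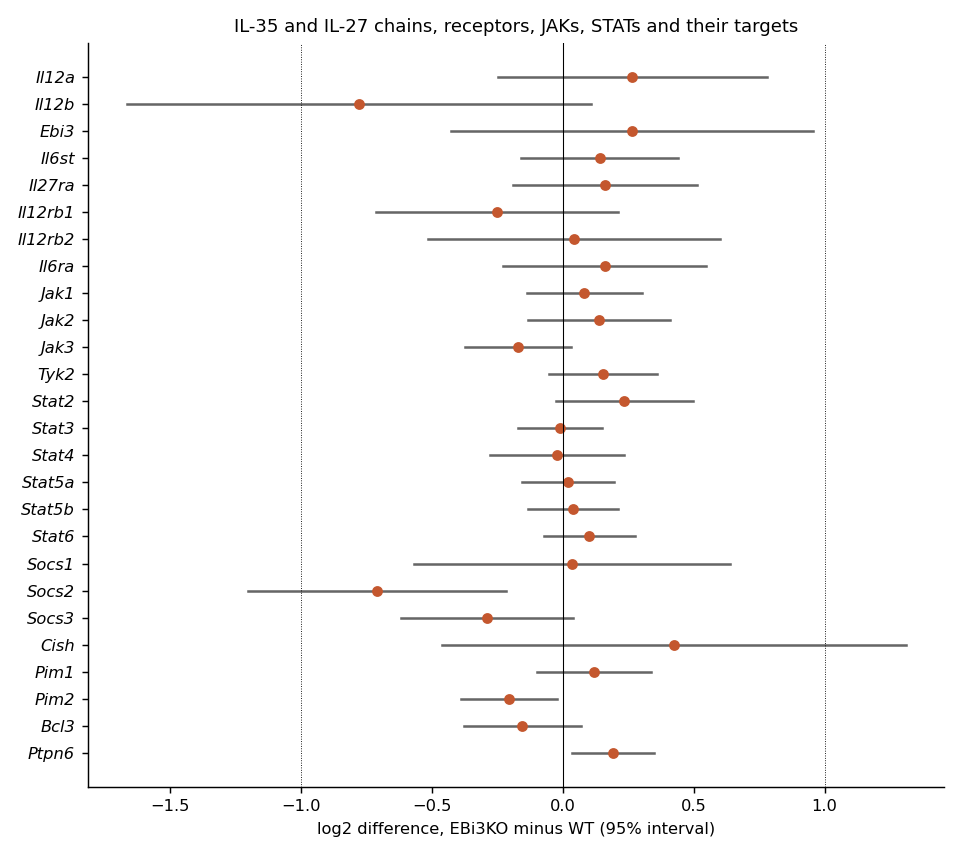
Log2 difference between EBi3KO and WT nontumor libraries (points) with 95% intervals (lines) for cytokine chains, receptors, JAKs, STATs and STAT targets; dotted lines mark a 2-fold difference. The interval of Stat3 runs from −0.17 to 0.15, while those of Ebi3 and Il12b are several times wider.

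No transcription factor of B cell fate passed the limma threshold. Bcl6, which drives the germinal center program, stood at 1433 and 1542 normalized counts in WT and at 1494 and 1630 in EBi3KO (0.07, 95% interval −0.10 to 0.24). Pax5 stood at 2581 and 2440 against 3497 and 2537 (0.25, 95% interval −0.05 to 0.54), with EBi3KO 1 alone above the others. Pou2f2, which encodes Oct-2, stood at 768 and 656 against 929 and 940 (0.40, adjusted p 0.577 by limma), and its coactivator gene Pou2af1 at 22547 and 23949 against 18226 and 21575 (−0.23). For these last genes the groups did not overlap, and they lay on opposite sides of 0. Over the 21 tested B cell identity genes, 2 were higher and 1 lower at an unadjusted p under 0.05, with a median of 0.032.

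B cell receptor signalling genes leaned upward by a small amount. Of 20 tested, 19 had a difference above 0, 2 were higher and 0 lower at an unadjusted p under 0.05, and the median was 0.062. The size of this median depended on the WT libraries, at 0.012 without WT replicate 2 and 0.18 without WT replicate 1. Cd72, an inhibitory coreceptor, stood at 5571 and 5072 normalized counts in WT and at 7136 and 5932 in EBi3KO (0.29), with no overlap between groups. The proximal kinases were level, with Lyn at 0.04, Syk at 0.06 and Btk at 0.05. The 16 tested NF-κB genes had 0 higher and 0 lower at an unadjusted p under 0.05.

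Interferon-inducible genes tended to stand lower in EBi3KO. Of 28 tested genes of the type I response, 1 was higher and 5 were lower at an unadjusted p under 0.05, with a median of −0.095. Of 24 of the interferon gamma response, 0 were higher and 4 lower, with a median of −0.092. Oasl2, an antiviral sensor protein, stood at 324 and 364 normalized counts in WT and at 259 and 252 in EBi3KO (−0.42), and Rtp4, a chaperone induced by interferon, at 689 and 852 against 530 and 602 (−0.44). Tgtp2, an interferon-inducible GTPase, stood at 1697 and 1597 against 1279 and 1156 (−0.44, limma adjusted p 0.360). Rsad2, the antiviral enzyme viperin, went the other way, at 382 and 424 against 489 and 899 (0.72), with most of the gap in EBi3KO 2.

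MHC class II presentation showed little difference. The 14 tested genes included 12 below 0, with a median of −0.10 that became −0.0053 under quantile normalization. Ciita, the master regulator of the class II genes, stood at 3394 and 2804 normalized counts in WT and at 3825 and 3545 in EBi3KO (0.26), while H2-Aa, a class II chain, stood at 195699 and 194211 against 166536 and 178086 (−0.18). Regulator and target thus stood on opposite sides of 0. Regulatory B cell genes had a median of −0.16 over 16 tested, with Il10, the cytokine most used to define such cells, at 30.2 and 20.6 against 20.4 and 19.1 (−0.32), and Tgfb1 at 0.06. Il10ra, the receptor chain for IL-10, stood at 2945 and 2406 against 3631 and 3147 (0.34).

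Genes of the translation and energy machinery shared a small downward offset. All 84 tested cytosolic ribosomal protein genes had a difference below 0 in the values as deposited, or 63 of 84 under quantile normalization. As deposited, their median was −0.21, and 48.6% of all tested genes lay below 0. Both EBi3KO libraries lay below both WT libraries for 70 of them, and 17 were lower at an unadjusted p under 0.05. Together they took 23.98% and 24.50% of the counts in WT and 21.81% and 22.35% in EBi3KO. The size of the offset depended on scaling, with a median of −0.048 under quantile normalization, and on WT replicate 2, without which it was −0.14. Rpl26, of the large subunit, stood at 2001 and 2424 normalized counts in WT and at 1540 and 1519 in EBi3KO (−0.53, limma adjusted p 0.505).

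Respiratory chain, mitochondrial ribosome and proteasome genes had medians of −0.16 over 80, −0.12 over 73 and −0.14 over 43 tested genes. Of the 80 respiratory chain genes 75 lay below 0, and 6 were lower at an unadjusted p under 0.05. Without WT replicate 2 the 3 medians were −0.055, −0.023 and −0.042. With the trend on length and GC content removed, the ribosomal protein median was −0.16 and the respiratory chain median −0.11.

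**Figure D5:**
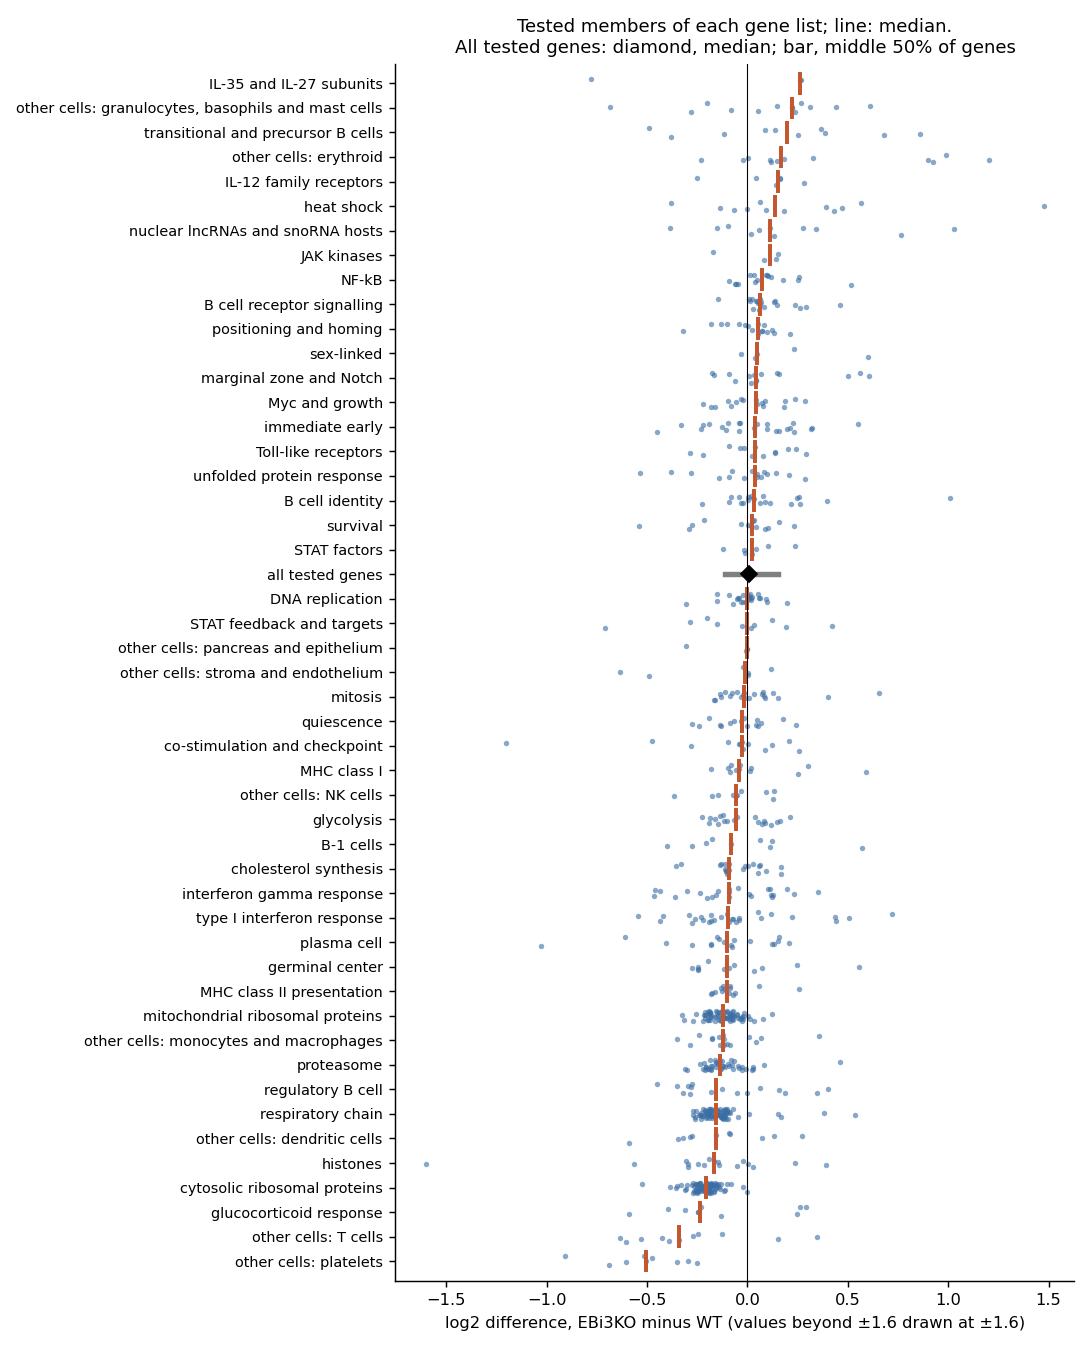
Log2 differences between EBi3KO and WT nontumor libraries for the tested members of each gene list (points) with the list median (line), lists ordered by median; the diamond and bar give the median and middle 50% of all 13011 tested genes. Most lists sit near 0, with the 84 cytosolic ribosomal protein genes below it (median −0.21, or −0.048 under quantile normalization) and platelet genes lowest (median −0.50).

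Cell division genes showed little difference as lists, and none passed the limma threshold. None of the 25 tested DNA replication genes had an unadjusted p under 0.05, and their median was −0.0025. Of 22 mitosis genes, 2 were higher and 0 lower, with a median of −0.015. Mki67, the marker of cycling cells, stood at 497 and 460 normalized counts in WT and at 859 and 661 in EBi3KO (0.65, limma adjusted p 0.451), and Cenpe, a kinetochore motor, at 67.1 and 57.6 against 81.8 and 82.8 (0.40).

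Some germinal center genes varied more within a genotype than between genotypes; those given here lie outside the gene rule and were chosen after their values were seen. Rgs13, a germinal center regulator of chemokine signals, stood at 386 and 1222 normalized counts in WT and at 340 and 942 in EBi3KO, and S1pr2, which confines cells to the germinal center, at 187 and 689 against 199 and 550. One library of each genotype, WT 2 and EBi3KO 2, was thus high. The list also holds Bcl6 and Il21r, given above, and Il21r did not show this pattern. The median difference over 12 tested members was −0.10, and it ran from −0.58 without WT replicate 1 to 0.52 without WT replicate 2.

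Stress transcripts set the other pair of libraries apart. Hspa1a, the inducible HSP70 chaperone, stood at 11027 and 6376 normalized counts in WT and at 35480 and 3801 in EBi3KO. Malat1, a nuclear long noncoding RNA, stood at 2782 and 936 against 4879 and 1540. EBi3KO 1 was highest for both, and WT 1 was above WT 2.

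Transcripts of other cells moved with the genotype label in part. Erythroid genes took 0.702% and 0.653% of the counts in WT and 1.10% and 1.59% in EBi3KO. Of 12 tested, 4 were higher and 0 lower at an unadjusted p under 0.05, 7 had both EBi3KO libraries above both WT libraries, and the median was 0.17. Hba-a1, an alpha globin gene, stood at 54780 and 56835 normalized counts in WT and at 88221 and 127033 in EBi3KO (0.92, 95% interval 0.56 to 1.28), with an adjusted p of 0.360 by limma and 1.33e-07 by DESeq2 (from 1.33e-07 to 0.936 over all settings). Reads of Hba-a1 can be split with its near-identical copy Hba-a2, and their sum stood at 79494 and 79223 against 127492 and 201492. Alas2, the first enzyme of heme synthesis in red cells, stood at 2403 and 1984 against 3418 and 4850 (0.90). Both globin and heme genes were higher in the 2 libraries labelled EBi3KO, without overlap.

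Other admixed cell types are given by share of counts and by list. The medians of the platelet and T cell lists lay further from 0 than the erythroid median of 0.17. Monocyte and macrophage genes took 0.667% and 0.722% of counts in WT and 0.594% and 0.734% in EBi3KO, overlapping, with 0 of 16 higher and 1 lower at an unadjusted p under 0.05. Platelet genes took 0.0161% and 0.0262% against 0.0147% and 0.0160%, and the 9 tested lay below 0 with a median of −0.50, which was −0.14 without WT replicate 2. Of these 9, 0 were higher and 3 lower at an unadjusted p under 0.05 by limma. Both EBi3KO libraries lay below both WT libraries for 6 of them. T cell genes took 0.00379% and 0.00334% against 0.00367% and 0.00302%, overlapping. Of 11 tested, 9 lay below 0, and 0 were higher and 0 lower at an unadjusted p under 0.05 by limma. The T cell median was −0.34, or −0.025 without EBi3KO replicate 2. The part of these cells in the B cell results above was not tested.

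Ribosomal RNA also moved with the label. Rn45s, the precursor of ribosomal RNA, stood at 204615 and 216465 normalized counts in WT and at 100186 and 70554 in EBi3KO, without overlap (−1.32, 95% interval −1.81 to −0.84, limma adjusted p 0.324). Its part in the other differences was not tested.

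Other DESeq2 calls, which like those above are described here because that test picked them, were genes of other or unclear settings. Rnaset2b, which encodes a secreted ribonuclease, stood at 3426 and 3542 normalized counts in WT and at 1674 and 2099 in EBi3KO (−0.89, limma adjusted p 0.184). Its near-identical copy Rnaset2a stood at 3013 and 3550 against 4218 and 4817, and the sum of both at 6439 and 7092 against 5891 and 6916, which overlapped. The difference of Rnaset2b alone is therefore uncertain, since the counting could split reads between the copies.

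C4b, a complement component, stood at 436 and 429 normalized counts in WT and at 218 and 200 in EBi3KO (−1.05, limma adjusted p 0.245), and the libraries within each genotype were close together. Wfdc17, a small secreted protein of myeloid cells, differed by −0.77, the chemokine gene Ccl5 by −0.54, the zinc finger gene Zbtb10 by −0.73 and the gene model Gm20594 by −0.44. Rrbp1, a ribosome-binding protein of the endoplasmic reticulum, differed by 0.64. The beta globin genes Hbb-b1 and Hbb-b2 differed by 0.81 and 1.32. At least 4 of the 11 genes higher by DESeq2 were thus globin or heme genes.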

How the data were processed

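RNA of splenic naive B cells was sequenced as stranded mRNA libraries (TruSeq), per the labels' protocols. Per the submitters' processing notes, the authors used Salmon, mm10 and DESeq2, with no version stated in those notes. The deposited signal values are normalized counts per gene symbol, and dividing out 1 factor per library gave whole reads for 100% of values (tolerance 0.01). The table has 23302 entries, 5065 of them at 0 throughout. From these values limma (version 3.58.1, R 4.3.3) was fitted with a trend to log2(normalized count + 1) over all 8 libraries, with 1 mean per group, for 13011 genes whose mean reached 10 or more. Tests were two-sided with Benjamini-Hochberg adjustment, threshold 0.05, residual degrees of freedom 4. On the recovered reads edgeR 4.0.16 and DESeq2 1.42.0 were run. The fits were tested on simulated data. Gene positions and lengths come from the GENCODE annotation of mm10.

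Lists hold genes chosen with earlier results of these data known. Genes were named by this rule: Stat3, Ebi3, Il12a, Pax5, Bcl6, Irf4, Prdm1 and Xbp1; of each list the 6 with the smallest p and up to 2 of highest mean; 10 tested genes on each side of Ebi3; markers. The rule also took the 20 largest rises and falls past the threshold, and there were none. Genes named for a DESeq2 call, for their place beside Il21r or for their spread between libraries, and others outside the rule (Sdc1, Il10, Btk, Socs1, Hspa1a and the like), were chosen after their values were seen. Entries changed into dates, 27 in all, were not named. Some genes called or listed are not reported here.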

Additional observations from a re-analysis of the deposited data

Results flagged for a closer look

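The effect of genotype differed between tumor-bearing and nontumor mice for 6881 of 13011 genes (52.9%) by the interaction term of limma at an adjusted p under 0.05. For Ebi3 the interaction was −4.34 on the log2 scale (SE 0.429, adjusted p 0.000209, from 6.65e-08 to 0.00196 over the settings tried). The WT tumor libraries also differ from the other 6 in the prefix of their titles and in Xist, which stood at 19758 and 26191 normalized counts there and at 18.3 or less in the other 6, so tumor, sex, title series and genotype cannot be told apart in this term.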

How the results depend on the processing

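Of 21 other settings, 16 gave 0 genes past the threshold, as limma did. The settings that kept all 4 compared libraries listed 373 to 1452 genes at an unadjusted p under 0.05. Leaving out 1 of the 4 libraries gave 0 to 5 genes (581 to 2930 unadjusted). The fit without EBi3KO replicate 2 called 5, among them D4Wsu53e, Erdr1 and Fam129c higher and Oaz1-ps lower; the fit without WT replicate 1 called 1, Eif3j1, and that without WT replicate 2 called 1, Cpt1b. The lone library left is then assumed to vary like the other groups. DESeq2 called 21. With the trend on length and GC content removed, chosen after seeing the data, 1 gene passed. Of 7867 values for 377 named genes, none of which limma called, 29 passed the threshold; of 1008 list medians 939 moved by less than the spread and 69 by more. The interaction count ran from 4767 to 7495. No paired analysis was possible because the compared groups share no number in their titles (3 and 4 against 7 and 8). With 2 libraries a side and the spread pooled over all 8 libraries, the 95% interval lay within 1.5-fold for 65.8% of genes. Ebi3 rested on 8 to 10 reads a library, which limits what its interval can show.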
